A study of Homo sapiens with 3 samples.

Results

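The amino acid response genes described here are ATF4, DDIT3, ATF3, ASNS, TRIB3, CHAC1, PSAT1, PHGDH, SESN2 and DDIT4, and all 10 were found among the 19775 genes to which at least 1 probe set of the array is listed alone. This list of genes was chosen with earlier results of these data known. The probe sets were then taken by name, without use of a signal, as every one whose listed gene symbols include a member. This gave 17 probe sets. Of these, 16 are listed for the gene alone and 1 is listed for PHGDH together with MZT2A and MZT2B, so its signal cannot be given to PHGDH. Expression was measured in unstressed HEK-293T cells, a human embryonic kidney line that, by the labels, carries an inserted temperature-sensitive gene for the SV40 T-antigen, grown in DMEM with 10% FBS(HI) and GlutaMax. Each of 3 cultures was put on its own 1-colour Affymetrix U133 Plus 2.0 array. The low-seeded 48 h culture was seeded with 375K cells and harvested at 48 h, the high-seeded 48 h culture with 750K cells and harvested at 48 h, and the 24 h culture with 1000K cells and harvested at 24 h. Harvest time and seeding therefore cannot be told apart, no stressed or amino acid starved cells are among the arrays, and the values show basal levels only.

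The integrated stress response lowers general protein synthesis by phosphorylation of the translation initiation factor eIF2, on which the kinases GCN2 (uncharged tRNA), PERK (unfolded protein in the endoplasmic reticulum), HRI and PKR converge. Translation of the ATF4 mRNA rises under these conditions because of short open reading frames ahead of its coding sequence, so the ATF4 mRNA level does not by itself give the level of the protein. ATF4 is a basic leucine zipper factor that binds, with C/EBP partners, to C/EBP-ATF response elements and induces genes of amino acid synthesis, transport and tRNA charging. It also induces further stress factors such as DDIT3 (CHOP) and ATF3.

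The members that make serine and asparagine and ATF4 itself lay far above background and hardly differed among the cultures, while CHAC1 lay close to background in all cultures and DDIT3 in those of 48 h. Background was read from 298 probe sets whose genes belong to other tissues, olfactory and bitter taste receptors included. Their 95th percentile served as the threshold of each array, 110.6 for the low-seeded 48 h, 127.9 for the high-seeded 48 h and 87.4 for the 24 h culture, and a probe set had to pass it on each of the 3 arrays to count. By this rule 14 of the 17 member probe sets and 9 of the 10 genes were above background, against 37.5% of all 54675 probe sets and 50.7% of all genes. CHAC1 was the gene that missed it. The study's absent/present calls were not used here, the signal of one probe set cannot be set against that of another, and SDs are over the 3 arrays (n = 3) and include the differences between culture conditions.

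**Figure D1:**
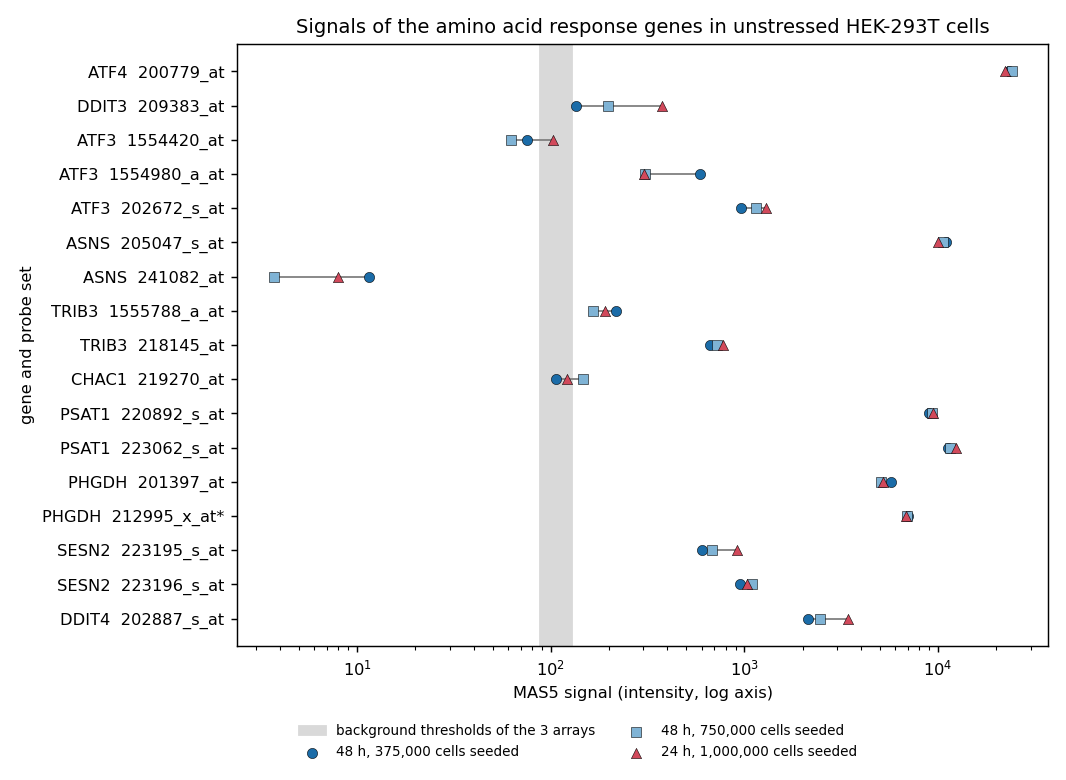
MAS5 signals of the 17 probe sets of the amino acid response genes in unstressed HEK-293T cells, 3 cultures. Signals (intensity) run along a horizontal log axis, symbols are the arrays, lines join the lowest and the highest, the grey band spans the background thresholds from 87.4 to 127.9 and the asterisk marks the probe set also listed for MZT2A and MZT2B; DDIT3 is spread from 135.1 to 376.8 while the symbols of ATF4, ASNS, PSAT1 and PHGDH above the band nearly coincide.

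The promoter windows of the members, 250 bases before to 50 bases after each RefSeq start site in GRCh38.p14, were searched on both strands for the core TGATGNAA of the C/EBP-ATF response element, with N for any base. The windows of all 10 genes were found, 16 in number since some genes have more than 1 start site. The core was present in 3 of the 16 (18.8%), those of ASNS, CHAC1 and ATF3, and in 3.62% of all 35116 windows. The longer TGATGCAAT was in 0 of the members' windows (0.236% of all) and the cAMP response element TGACGTCA, added after the values were seen, in 0 as well (1.85% of all). No match says only that these letters are absent from the window. The stretches that hold the core are printed with its bases in capitals, since they are where these letters occur in the windows searched. Sequence outside the windows was not searched. They are written on the gene's strand, at chr7:97872423-97872522 (minus strand) for ASNS, at chr15:40953221-40953315 (plus strand) for CHAC1 and at chr1:212565170-212565269 (plus strand) for ATF3. In CHAC1 the core is read on the opposite strand.
ASNS: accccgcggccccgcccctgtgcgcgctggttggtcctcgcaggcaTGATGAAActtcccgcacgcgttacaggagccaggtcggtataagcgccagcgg
CHAC1: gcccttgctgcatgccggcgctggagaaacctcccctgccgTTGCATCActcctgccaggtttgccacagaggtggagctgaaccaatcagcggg
ATF3: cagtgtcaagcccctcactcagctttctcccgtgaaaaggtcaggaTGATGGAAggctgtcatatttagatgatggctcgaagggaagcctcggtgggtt

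Counted from the start site of the window, where the base before it is -1, the core runs from -68 to -61 in ASNS, from -209 to -202 in CHAC1 and from -191 to -184 in ATF3. ASNS and ATF3 each have another start site, and the core is absent from its window. For ATF3 that window lies far downstream, at chr1:212614768-212615067, and the sequence between the ATF3 windows was not searched. Which start sites the cells used was not measured. Of these genes ASNS and ATF3 were above background in the unstressed cells and CHAC1 was not, and the 7 members without the core in these windows were all above it. No binding was measured, and the match is a description of the sequence.

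ATF4, the transcription factor at the head of the response, is measured by the probe set 200779_at. It gave 23119 with low seeding at 48 h, 23930 with high seeding at 48 h and 22104 at 24 h. The values lie close together, with the highest 1.08 times the lowest (mean 23051, SD 915.0, n = 3). The 24 h culture was the lowest of the 3, with a log2 difference to the 48 h pair of -0.09 (standard error 0.10, 95% interval -0.29 to 0.11, limma, adjusted p = 0.845).

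DDIT3 encodes CHOP, a C/EBP-family factor induced by ATF4 that takes part in cell death after long endoplasmic reticulum stress. Its only probe set, 209383_at, gave 135.1 with low seeding at 48 h, 198.3 with high seeding at 48 h and 376.8 at 24 h. The 24 h culture thus stood above both 48 h cultures, at 2.26 times their mean, but the 48 h cultures also differed, by 1.47 times. These signals are 1.22, 1.55 and 4.31 times the threshold of their array, and at the 99th percentile of the reference DDIT3 was not above background. The log2 difference was 1.11 (standard error 0.36, 95% interval 0.35 to 1.87), the largest among the member probe sets, and it did not pass the test over all probe sets (limma, adjusted p = 0.278). DDIT3 had the widest spread of the tested members, with a range over the cultures of 1.48 on the log2 scale, and 1.21% of all tested probe sets had a wider one.

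ATF3, a basic leucine zipper factor that lies downstream of ATF4 and also responds to many other stresses, has 3 probe sets that did not go the same way. On 202672_s_at the signals were 965.0 with low seeding at 48 h, 1152 with high seeding at 48 h and 1298 at 24 h, so the 24 h culture was the highest. On 1554980_a_at they were 586.4, 306.9 and 302.6 in the same order, so the low-seeded 48 h culture stood alone and the other cultures nearly coincided. The third, 1554420_at, gave 75.7, 62.1 and 103.1 and was above its threshold in the 24 h culture only. Neither tested probe set passed, with log2 differences of 24 h to 48 h of 0.29 (standard error 0.16, limma, adjusted p = 0.592) and -0.47 (standard error 0.32, adjusted p = 0.708). The first has a 95% interval of -0.03 to 0.62 and the second one of -1.13 to 0.20, so the data do not settle whether ATF3 mRNA differed between the harvest times. Without the low-seeded 48 h culture the second difference was -0.02. Which transcripts each probe set detects was not analysed here.

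TRIB3, a pseudokinase that is induced by ATF4 and DDIT3 and restrains ATF4 activity, gave 663.5 with low seeding at 48 h, 722.3 with high seeding at 48 h and 773.5 at 24 h on 218145_at. On 1555788_a_at it gave 216.3, 165.6 and 189.3 in the same order. Both probe sets were above background, the first by at least 5.65 times and the second by at least 1.29 times on every array, and they put the cultures in different orders. The log2 differences of 24 h to 48 h were 0.16 (standard error 0.19) and -0.00066 (standard error 0.38), with adjusted p of 0.871 and 1.00 (limma).

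CHAC1 degrades glutathione and is induced through ATF4. Its probe set, 219270_at, gave 106.2 with low seeding at 48 h, 147.3 with high seeding at 48 h and 120.9 at 24 h. The low-seeded culture lay just under its threshold (0.960 times) and the others just over theirs (1.15 and 1.38 times), so CHAC1 was not counted as above background. It was counted at the 90th percentile, with tissue-restricted genes alone as the reference, where 2 arrays were enough and where the low-seeded 48 h culture was left out. The signal does not resolve a difference between harvest times either, with a log2 difference of -0.04 and a 95% interval of -1.01 to 0.93 (limma, adjusted p = 0.992).

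ASNS, which makes asparagine from aspartate and glutamine, gave 10999 with low seeding at 48 h, 10647 with high seeding at 48 h and 9986 at 24 h on 205047_s_at. The highest was 1.10 times the lowest, and the 24 h culture was below both others (log2 difference -0.12, standard error 0.09, limma, adjusted p = 0.765). Its other probe set, 241082_at, gave 11.6, 3.71 and 7.92, far below the threshold of each array (0.105, 0.0290 and 0.0906 times). ASNS therefore counts as above background through 1 of 2 probe sets, and that one is of a kind (marked _s_at) that can share sequence with other genes.

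PSAT1 and PHGDH catalyse steps of serine synthesis from a glycolytic intermediate, PHGDH the first and PSAT1 the transamination that follows. PSAT1 gave 9010 with low seeding at 48 h, 9343 with high seeding at 48 h and 9394 at 24 h on 220892_s_at. On 223062_s_at it gave 11263, 11570 and 12431 in the same order. Both probe sets order the cultures alike, but the steps are small, with the highest 1.04 and 1.10 times the lowest. The log2 differences of 24 h to 48 h were 0.03 (95% interval -0.16 to 0.23) and 0.12 (95% interval -0.07 to 0.32), with adjusted p of 0.955 and 0.749 (limma). These enzymes thus stood nearly level over the cultures. PHGDH gave 5724 with low seeding at 48 h, 5080 with high seeding at 48 h and 5206 at 24 h on 201397_at, with the 24 h culture between the others (log2 difference -0.05, standard error 0.10, adjusted p = 0.936). The probe set 212995_x_at, listed for PHGDH, MZT2A and MZT2B, gave 6970, 6873 and 6792 in the same order and had the narrowest range of all members, 0.04 on the log2 scale.

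SESN2 and DDIT4 encode proteins that lower mTORC1 activity, SESN2 (sestrin 2) as a leucine sensor that acts on the GATOR complexes and DDIT4 (REDD1) through the TSC complex. DDIT4 gave 2126 with low seeding at 48 h, 2468 with high seeding at 48 h and 3435 at 24 h on 202887_s_at. The 24 h culture was 1.495 times the mean of the 48 h cultures, while the 48 h cultures differed by 1.16 times. It was the 1 member probe set called between the harvest times, with a log2 difference of 0.58 (standard error 0.12, 95% interval 0.33 to 0.83, limma, adjusted p = 0.0425). The call rests on 1 array at 24 h, with the spread taken from 48 h cultures that differ in seeding. The adjusted p rose to 0.0703 after quantile normalization, to 1.00 after scaling to equal medians and to 0.757 without limma's mean-variance trend, so the call depends on these choices. The log2 difference was 0.57 and 0.63 after these normalizations, and leaving out the trend cannot change it. It was 0.47 without the low-seeded and 0.69 without the high-seeded 48 h culture. SESN2 gave 601.3, 682.5 and 918.7 in the same order of cultures on 223195_s_at, again with the 24 h culture highest. That difference did not pass (log2 0.51, standard error 0.19, 95% interval 0.11 to 0.90, limma, adjusted p = 0.369). The second SESN2 probe set, 223196_s_at, gave 949.9, 1088 and 1034, with the 24 h culture between the others and a log2 difference of 0.02 (95% interval -0.31 to 0.36, adjusted p = 0.985), so the probe sets of SESN2 did not go the same way. All probe sets of DDIT4 and SESN2 are marked _s_at.

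The test took in the 15 member probe sets that lay, in the mean of their log2 signals, above the mean of the thresholds. Of these, 1 was called higher in the 24 h culture and 0 lower, against 0.24% higher and 0.0755% lower among all 22519 probe sets tested (0.315% in both directions). At an unadjusted p under 0.05 there were 3 (DDIT3, DDIT4 and 1 of SESN2), against 9.41% of all probe sets tested. The median log2 difference was 0.0241 over the members and 0.00466 over all probe sets tested. The test, limma with a mean-variance trend on log2(signal + 19.5), compares 1 array with 2, which leaves each probe set 1 residual degree of freedom, and it takes the 24 h array to vary as the 48 h pair does.

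**Figure D2:**
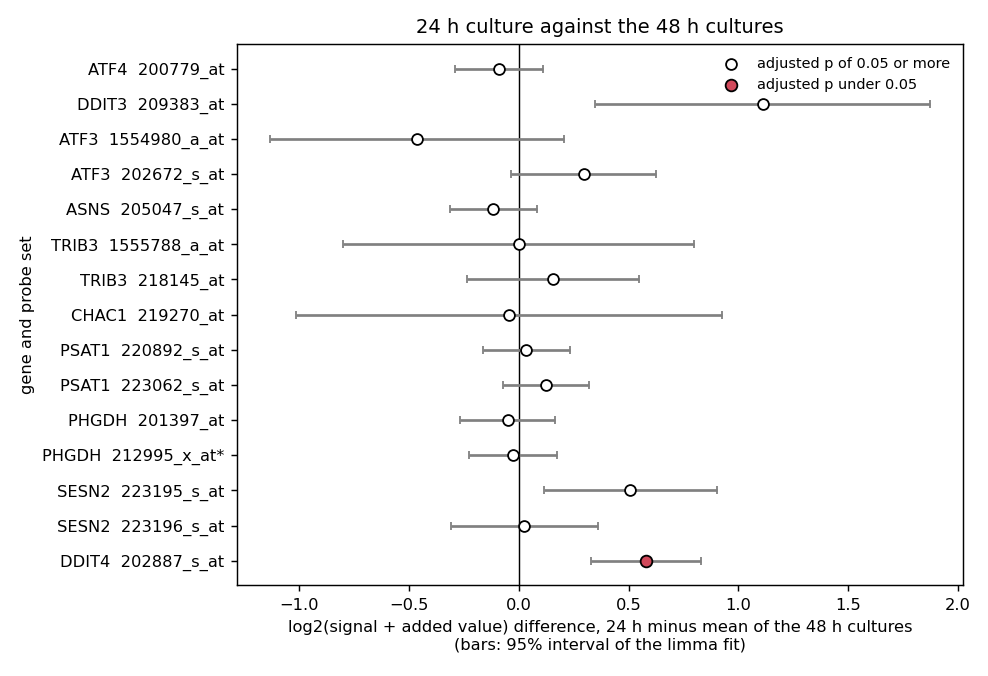
Difference of the 24 h culture to the mean of the 48 h cultures for the 15 member probe sets tested, on the log2(signal + 19.5) scale; bars are 95% intervals of the limma fit, the filled symbol marks an adjusted p under 0.05 and the asterisk the probe set also listed for MZT2A and MZT2B. DDIT4 at 0.58 is the filled symbol, DDIT3 at 1.11 lies farther from 0 with a wider interval, and ATF4, ASNS, PSAT1 and PHGDH lie between -0.12 and 0.12.

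The order of the cultures differed among the members. The 24 h signal was above both 48 h signals for 7 of the 15 tested probe sets and below both for 4, against 35.1% and 35.4% of all probe sets tested. The same 7, those of DDIT3, DDIT4, TRIB3 (1 of 2), ATF3 (1 of 2 tested), SESN2 (1 of 2) and PSAT1 (both), rose in the order of the number of cells seeded, from the low-seeded 48 h over the high-seeded 48 h to the 24 h culture. Such an order was found for 16.5% of all probe sets tested. It was looked for after the values were seen, seeding and harvest time run together in it, and the number fell to 5 after scaling to equal medians (10.8% of all probe sets). The 4 probe sets with the 24 h signal below both others were those of ATF4 and ASNS, 1554980_a_at of ATF3 and the one shared by PHGDH, MZT2A and MZT2B, and after scaling to equal medians there were 0 (24.1% of all).

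Over all probe sets tested the cultures differed less the higher the signal, and the members did not follow this throughout. The 15 member probe sets had a median range (highest minus lowest log2 signal) of 0.22, against 0.31 over all probe sets tested. Of the 15, 11 stayed under 0.5. Without the low-seeded 48 h culture the members' median was 0.10. That value spans fewer arrays, which cannot widen the range of a probe set. It was not computed for all probe sets. The 6 member probe sets with signals over 5000 (ATF4, ASNS, PSAT1 and PHGDH) had a median range of 0.13, beside 0.16 over all 2018 tested probe sets of that height. The 6 include the probe set shared by PHGDH, MZT2A and MZT2B, which had the narrowest range (0.04). The 3 member probe sets between 1000 and 5000 (DDIT4, ATF3 and SESN2) had a median of 0.43, beside 0.20 over 6148 probe sets, whose 90th percentile was 0.42. Between 300 and 1000 the 3 member probe sets gave 0.61 beside 0.32 over 7255, and ATF3 on 1554980_a_at (0.95) lay above the 90th percentile of 0.65. Under 300 the median was 0.47 for 3 members and 0.56 for 7098 probe sets, and there CHAC1 (0.47) and the weaker TRIB3 probe set (0.39) lay under the median of all and DDIT3 (1.48) above their 90th percentile of 1.15. With so few members per class these are descriptions.

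**Figure D3:**
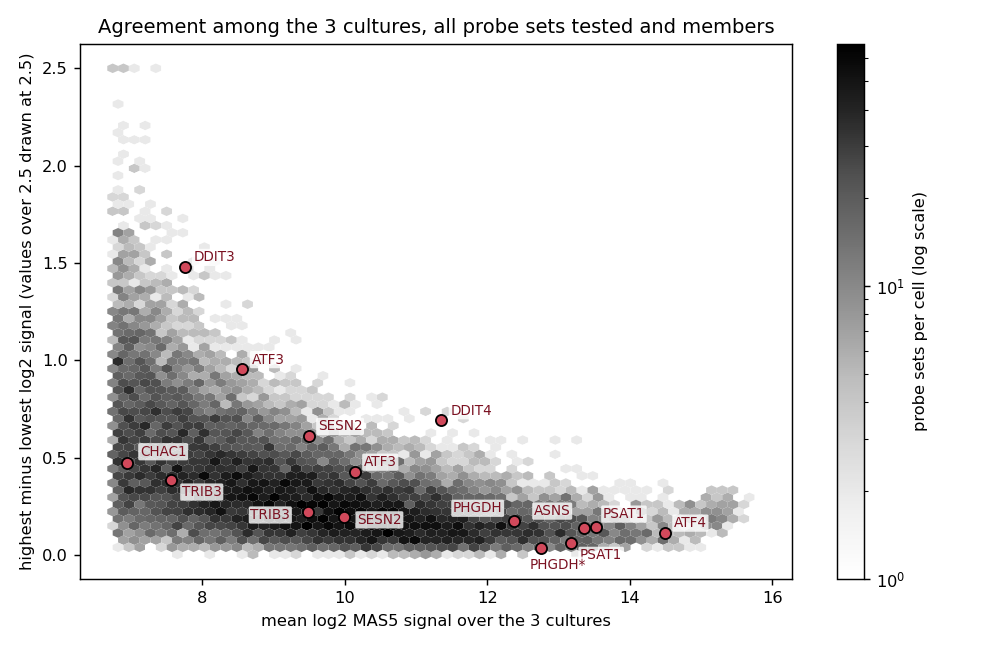
Range over the 3 cultures (highest minus lowest log2 signal) against the mean log2 signal, for the 22519 probe sets tested (grey cells, darker with more probe sets) and the 15 member probe sets (red; the asterisk marks the one also listed for MZT2A and MZT2B). The range of the cloud narrows with the signal. DDIT3 at 1.48, ATF3 on 1554980_a_at at 0.95 and DDIT4 at 0.69 lie on the upper edge of the cloud for their signal. ATF4, ASNS, PSAT1 and PHGDH, all at high signals, have ranges of at most 0.17.

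The other genes of the pathway were mostly above background too. Of 88 listed genes 85 had a probe set of their own, and 77 of these (90.6%) were above background, beside 50.7% of all genes. The number was 68 at the 99th percentile of the reference and 79 at the 90th, so some of the genes lie near the threshold. All 6 listed genes that act on eIF2 phosphorylation were above background, among them EIF2AK4 (GCN2) with 618.1 ± 77.6 (SD, n = 3), EIF2AK3 (PERK) with 768.0 ± 186.1 and EIF2AK1 (HRI) with 4324 ± 97.5. All 8 subunits of eIF2 and eIF2B were as well, with EIF2S1, the subunit that is phosphorylated, at 8781 ± 453.2. So were all 5 genes of the phosphatase that reverses this phosphorylation, with its stress-induced subunit PPP1R15A (GADD34) at 188.7 ± 12.8, and all 8 regulators of endoplasmic reticulum stress, with the chaperone HSPA5 (BiP) at 13061 ± 871.3. Among the C/EBP partners CEBPB, CEBPG and CEBPA were above background, and NUPR1, a stress-induced chromatin protein, was not. NUPR1 gave 114.3, 28.1 and 16.5 in the low-seeded 48 h, the high-seeded 48 h and the 24 h culture. It passed the threshold on the low-seeded 48 h array only (110.6 there).

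In serine and one-carbon metabolism 5 of 7 genes were above background, including PSPH, which completes serine synthesis after PHGDH and PSAT1 (853.2 ± 177.7, n = 3), and the mitochondrial enzyme SHMT2 (6085 ± 397.6). SHMT1, the cytosolic counterpart of SHMT2 (64.1 ± 17.8), and MTHFD1L (17.4 ± 11.7) were not. Of the listed amino acid transporters 7 of 8 were above background, SLC7A11 and SLC3A2, which together form the cystine transporter, among them, and the glycine transporter SLC6A9 (59.5 ± 33.0) was not. In the sestrin and mTORC1 list DEPDC5, a GATOR subunit, missed it on the high-seeded 48 h array only (139.0, 98.3 and 169.4 for the low-seeded 48 h, high-seeded 48 h and 24 h culture). All 10 measured aminoacyl-tRNA synthetases and all 7 enzymes of proline, cysteine and other amino acids were above background. The late stress targets had the lowest share of these lists, 6 of 9. The secreted factors FGF21 (18.4 ± 7.79, n = 3) and GDF15 (103.7 ± 15.7) and the lipoprotein receptor VLDLR (84.5 ± 0.614) were not above background, like CHAC1 among the members, whereas the death receptor TNFRSF10B, a target of CHOP, was. The brightest GDF15 probe set passed the threshold on the 24 h array only (90.8, threshold 87.4).

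Between the harvest times 1 of 147 tested probe sets of these pathway genes was called, beside 0.315% of all probe sets tested. It was 200842_s_at of EPRS1, the glutamyl-prolyl-tRNA synthetase, which gave 6658 with low seeding at 48 h, 6893 with high seeding at 48 h and 4739 at 24 h (log2 difference -0.51, standard error 0.10, limma, adjusted p = 0.0242). Like that of DDIT4, this call rests on the lone 24 h array, and it was lost after scaling to equal medians (adjusted p = 1.00) and without the mean-variance trend (adjusted p = 0.757). The other probe sets of EPRS1 gave -0.45 (adjusted p = 0.0914) and -0.17 (adjusted p = 0.609). Taking the brightest probe set of each gene, all 10 synthetases had a lower signal at 24 h (median log2 difference -0.14), and 9 of 10 did after quantile normalization and after scaling to equal medians. For EPRS1 that is not the probe set called, and dimmer probe sets of YARS1 (0.54) and CARS1 (0.18 and 0.24) were higher at 24 h without passing the test (limma, adjusted p of 0.688, 0.813 and 0.759). Of the 9 genes of the sestrin and mTORC1 list 7 were higher at 24 h (6 after quantile normalization and 8 after scaling to equal medians), with a median of 0.30. The 7 include DEPDC5 (0.47), which was not above background. The dimmer tested probe sets of SESN3, also among the 7, were split, at 0.56, 0.01, -0.09 and -0.15. Other lists leaned to a side too. Of the eIF2 and eIF2B subunits 1 of 8 was higher at 24 h (3 after scaling to equal medians), and of the regulators of endoplasmic reticulum stress 6 of 8 were. Among all probe sets tested 50.8% were higher at 24 h (49.6% after quantile normalization and 59.3% after scaling to equal medians). Over all 78 tested genes of the lists 38 were higher and 40 lower, with a median of -0.00459, which turned to 40 higher and 38 lower (0.01) after quantile normalization and to 47 and 31 (0.05) after scaling to equal medians. None of these 78 brightest probe sets was called (limma), and 19 of the 147 tested had an unadjusted p under 0.05, beside 9.41% of all probe sets tested.

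**Figure D4:**
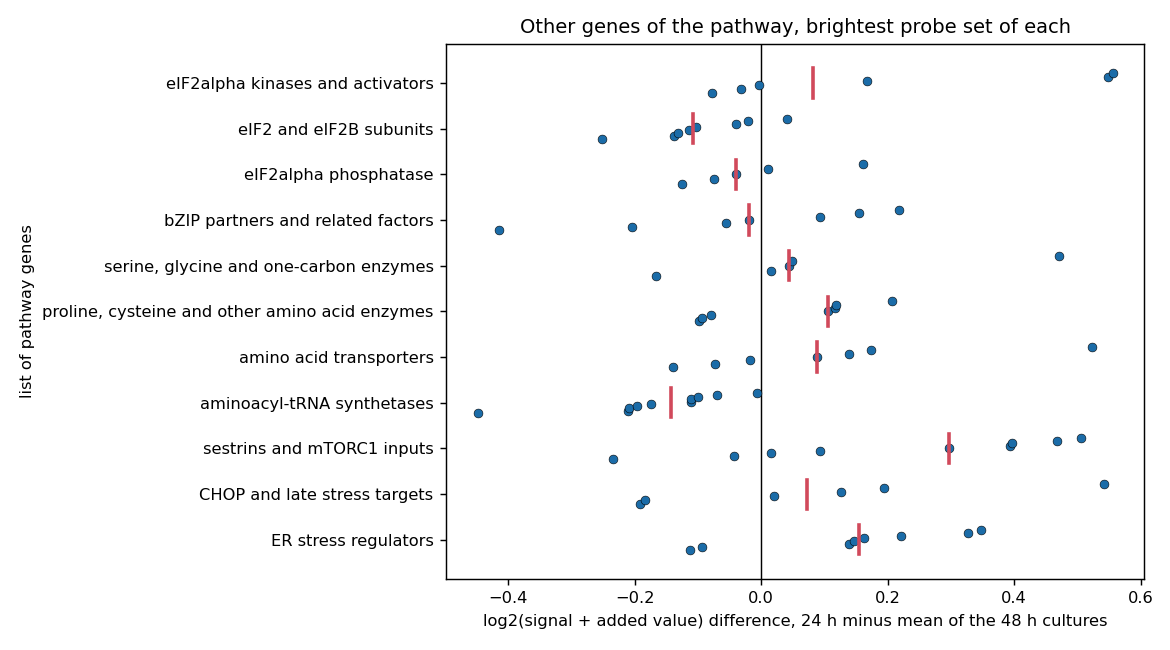
Difference of the 24 h culture to the mean of the 48 h cultures for the brightest probe set of each of 78 further pathway genes, by list, on the log2(signal + 19.5) scale. Points are genes and red bars are medians of the lists. Among all probe sets tested, not drawn here, 50.8% lie above 0. The 10 aminoacyl-tRNA synthetases all lie below 0 with a median of -0.14 (9 of 10 after quantile normalization or scaling to equal medians), and 7 of 9 sestrin and mTORC1 genes above it with a median of 0.30 (6 and 8 after these); none of the points passed the test.

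The median signal was highest in the high-seeded 48 h culture (80.3), and RNA integrity numbers were 9.6 with low seeding at 48 h, 10.0 with high seeding at 48 h and 9.5 at 24 h. The ratio of 3' to 5' signal of the ACTB control probe sets was 1.10, 1.14 and 1.18 in the same order and that of GAPDH 0.906, 0.876 and 0.930, so the highest of both were in the 24 h culture. Their part in the difference of DDIT4 was not tested. Of the markers set for HEK-293T, VIM, KRT8, KRT18, NEFL and NEFM were above background and PAX2 was not. The brightest PAX2 probe set missed the threshold on the low-seeded 48 h array only (85.5). Of the measured markers of mature tubule, leukocytes, endothelium and fibroblasts COL1A1 alone was above background (501.5 ± 62.9, n = 3).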

How the data were processed

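The authors hybridised biotin-labelled RNA of 3 cultures to Affymetrix U133 Plus 2.0 arrays and deposited MAS5 signals, an intensity on a linear scale (GCOS 1.0 in the submitters' processing notes), with a mean of 499.9 on each array once the top and bottom 2% are left out. Arrays carry no depth; their number limits precision. Genes were named from the platform annotation, with current symbols of GRCh38.p14 looked up by gene ID (41043 of 41097 probe sets with 1 gene matched). Groups were taken from the harvest time in the labels. Nothing says whether RNA came from separate passages, so p-values measure only the spread between these samples.

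The background reference had 298 probe sets of 210 genes, of which 155 probe sets were for receptors, and 7 of the probe sets were themselves above background. The 24 h array was compared with the 48 h pair by limma 3.58.1 (R 4.3.3) on log2(signal + 19.5), where 19.5 is the median reference signal, over probe sets with a mean log2 signal above that of the thresholds (107.4), with Benjamini-Hochberg adjustment over all of them. This scale understates fold changes of low signals. On simulated arrays of 22519 probe sets with the smoothed spread of the 48 h pair, 90.5% of probe sets changed by 1 and 100% of those changed by 2 on the log2 scale were called, with 14 false calls. Simulated probe sets of like signal all took the same smoothed spread. The simulated shares can therefore be too high for the real arrays, where the spread differs between probe sets. Every member and, of each pathway list, the genes called, and otherwise from the first 3 and up to 5 genes on the smaller side of the threshold, were named. The members, lists and tests were chosen with earlier results of these data known. Promoter sequences are from RefSeq (GRCh38.p14), and probe sequences were not used here.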

Additional observations from a re-analysis of the deposited data

How the results depend on the processing

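The number of member genes above background was 9, with a range of 8 to 10 over the other thresholds, references and arrays left out, and fell to 5 without probe sets that can share sequence, since PSAT1, SESN2 and DDIT4 have no other kind and ASNS only one below background. The count of member probe sets called between the harvest times was 1, and 0 after quantile normalization, after scaling to equal medians and without limma's mean-variance trend, where 3 members had an unadjusted p under 0.05 in each. Over all probe sets 71 were called, against 12 after scaling to equal medians (897 at an unadjusted p under 0.05) and 0 without the trend (1365). The median range of the members was 0.22, and 0.39 without the filter on low signals. With 1 array left out it was 0.10 to 0.19, lowest without the low-seeded 48 h culture. Fewer arrays cannot widen the range of a probe set, so these values cannot be set against 0.22. Differences near 0 changed sign: after scaling to equal medians those of TRIB3 on 1555788_a_at (0.0461), PHGDH (0.0022), CHAC1 (0.0024) and the probe set shared with MZT2A and MZT2B (0.0257, and 0.0078 after quantile normalization), and with an added value of 1 that of TRIB3 (0.000402). Scaling to equal medians multiplies each array by a constant and so shifts probe sets in general. The median difference over all probe sets tested went from 0.00466 to 0.0558. What turned the signs in the other settings was not tested. Leaving out a 48 h array leaves 1 array against 1, with no test; DDIT4 was then 0.47 and 0.69 and DDIT3 0.86 and 1.36 without the low-seeded and the high-seeded culture. Without the low-seeded one the sign turned for TRIB3 on 1555788_a_at (0.17), PHGDH on 201397_at (0.04) and SESN2 on 223196_s_at (-0.07), and without the high-seeded one for CHAC1 (0.16). At signals near the threshold the limit is set by the spread, as in the wide interval of CHAC1.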
